A study of Bos taurus with 15 samples.

Results

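ARL15 and SLC9C2 were followed across 15 RNA-seq libraries of bovine morulae, the cleavage stage at which the cells of the embryo compact before a blastocyst forms. They are 2 of the 31999 rows of the deposited count table, and both are listed under their gene symbols. They were chosen by their measured counts, which were lower in the androgenetic than in the parthenogenetic and ICSI libraries, so that pattern is described here without a test. The libraries were 5 of haploid androgenetic morulae, with titles beginning TII, 5 of haploid parthenogenetic morulae, with titles beginning CHX, and 5 of diploid morulae made by intracytoplasmic sperm injection (ICSI). An androgenetic embryo carries only a sperm genome, a parthenogenetic embryo only an oocyte genome, and an ICSI embryo both. Each group was made by its own procedure. Between either haploid group and ICSI, procedure, parental genome and ploidy cannot be told apart. The androgenetic and parthenogenetic groups are both labelled haploid, and between them procedure and parental genome cannot be told apart. The labels used here name no breed, sire, oocyte donor, culture day or batch, and do not say whether a library holds 1 embryo or a pool. The study's title names WNT signalling and cell fate.

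ARL15 encodes a small GTPase of the ARF-like branch of the ARF family, proteins that switch between GDP-bound and GTP-bound states at membranes and act in vesicle traffic, the cytoskeleton and cilia. In human and mouse cells ARL15 binds the CNNM proteins and takes part in magnesium transport, and in human populations its locus is associated with adiponectin and insulin traits. SLC9C2 belongs to the SLC9 family, membrane proteins that exchange sodium ions for protons. Its closest relative, SLC9C1, is known in mouse and sea urchin as a sperm exchanger needed for motility, while the role of SLC9C2 itself is little known.

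Androgenetic libraries held 21617805 to 28462700 counts, parthenogenetic libraries 25110511 to 28981601 and ICSI libraries 19968077 to 26948011. Between 13564 and 18633 rows had a count in androgenetic libraries, against 16154 to 18899 in parthenogenetic libraries and 15286 to 19950 in ICSI libraries. SNURF, which is transcribed from the paternal allele in mammals and so bears on the labels, stood at 160.6 to 315.9 CPM in androgenetic libraries, 0.0445 to 1.54 CPM in parthenogenetic libraries and 79.1 to 201.4 CPM in ICSI libraries. CPM is the counts-per-million unit, here after scaling by TMM factors, which correct for libraries in which a few genes take a large share of the reads. These factors spanned 0.649 to 1.02 for androgenetic, 0.776 to 1.21 for parthenogenetic and 0.938 to 1.38 for ICSI libraries. Of 20 marker genes of the inner cell mass and trophectoderm, only the pluripotency factor SOX2 had a row under its symbol, with medians of 2.26 CPM (androgenetic), 5.13 CPM (parthenogenetic) and 2.45 CPM (ICSI). Markers of cumulus cells, oocytes and sperm were not matched to a row and are not analysed here. Since these are bulk samples, fewer cells with a transcript and less transcript per cell cannot be told apart.

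ARL15 was low in every androgenetic library. It had 3.20, 7.08, 6.96, 8.79 and 0.271 CPM in androgenetic replicates 1, 2, 4, 5 and 6. In parthenogenetic replicates 1, 2, 3, 5 and 6 it had 31.6, 26.9, 44.9, 32.3 and 71.4 CPM. In ICSI replicates 1 to 5 it had 34.8, 37.6, 51.3, 28.2 and 20.4 CPM. The androgenetic values did not overlap with those of either other group, and their highest, 8.79 CPM in replicate 5, lay below the lowest of the other 10 libraries, 20.4 CPM in ICSI replicate 5. Of all 16375 rows tested, 1.13% had every androgenetic library below the other 10, 4.15% had them all below the ICSI libraries and 2.77% all below the parthenogenetic libraries. These shares are background only, because ARL15 was chosen for that pattern.

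ARL15 averaged 5.26 ± 3.46 CPM over androgenetic libraries, 41.4 ± 18.03 CPM over parthenogenetic libraries and 34.5 ± 11.5 CPM over ICSI libraries (SD, n = 5 each). The fitted log2 fold change was -2.71 ± 0.63 (SE) for androgenetic minus ICSI, which is 6.55-fold lower, and -2.98 ± 0.64 for androgenetic minus parthenogenetic, which is 7.87-fold lower. Neither is given a p-value, because these are the contrasts on which the gene was chosen. In androgenetic replicate 6 the level rested on 5 ARL15 counts, which is 0.176 CPM without the scaling factor (95% Clopper-Pearson interval 0.0570 to 0.410, covering counting error only). This library had the fewest genes detected, 13564, although its total of 28462700 counts was the highest of its group. Without it the androgenetic mean was 6.51 ± 2.36 CPM (SD, n = 4), still below each of the other 10 libraries. Androgenetic replicate 4, with the most genes detected in its group at 18633, had 6.96 CPM. With genes detected as a covariate the ARL15 value for androgenetic minus ICSI was -2.35.

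SLC9C2 was also low in androgenetic morulae, but less clearly separated from the other groups. It had 18.9, 9.79, 11.2, 3.92 and 25.04 CPM in androgenetic replicates 1, 2, 4, 5 and 6. In parthenogenetic replicates 1, 2, 3, 5 and 6 it had 119.5, 18.1, 69.6, 96.9 and 31.9 CPM. In ICSI replicates 1 to 5 it had 62.7, 39.8, 39.0, 96.7 and 62.6 CPM. The androgenetic libraries lay below all ICSI libraries, with 25.04 CPM as their highest value and 39.0 CPM as the lowest in ICSI. They overlapped with the parthenogenetic libraries, since parthenogenetic replicate 2 at 18.1 CPM stood below androgenetic replicates 1 and 6. Without scaling factors the overlap was absent by a narrow margin, with the highest androgenetic library at 17.7 CPM and parthenogenetic replicate 2 at 18.2 CPM.

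SLC9C2 averaged 13.8 ± 8.26 CPM over androgenetic libraries, 67.2 ± 42.7 CPM over parthenogenetic libraries and 60.2 ± 23.5 CPM over ICSI libraries (SD, n = 5 each). Its fitted log2 fold change was -2.13 ± 0.55 (SE) for androgenetic minus ICSI, or 4.36-fold lower, and -2.28 ± 0.56 for androgenetic minus parthenogenetic, or 4.87-fold lower. These contrasts chose the gene and carry no test. The highest SLC9C2 value was 6.39 times the lowest among androgenetic libraries, 6.60 times among parthenogenetic and 2.48 times among ICSI libraries.

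**Figure D1:**
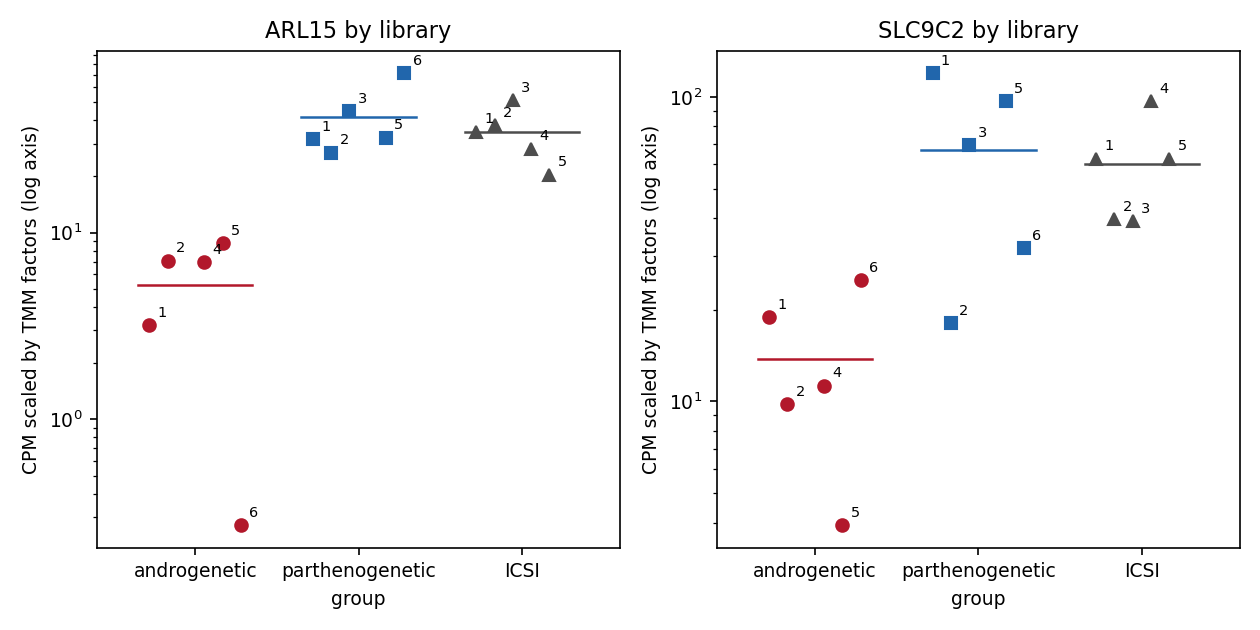
Level of ARL15 (left) and SLC9C2 (right) in each library, as CPM scaled by TMM factors on a log axis, with the replicate number beside each point and the group mean as a line. The 5 androgenetic ARL15 values, 0.271 to 8.79 CPM, lie below all others, while for SLC9C2 parthenogenetic replicates 2 and 6 come close to the androgenetic libraries.

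Both genes had the same order of mean CPM, with androgenetic lowest, as chosen, ICSI next and parthenogenetic highest. The parthenogenetic and ICSI means lay within 1 SD of each other, and their order depended on the summary. Parthenogenetic and ICSI medians were 32.3 and 34.8 CPM for ARL15 and 69.6 and 62.6 CPM for SLC9C2. Their means of log2(CPM + 1) were 5.32 and 5.09 for ARL15 and 5.79 and 5.85 for SLC9C2. The genes did not order the libraries within a group alike. Androgenetic replicate 6 had the lowest ARL15 value of all 15 libraries and the highest androgenetic SLC9C2 value, 0.271 and 25.04 CPM. Parthenogenetic replicate 6 had the highest ARL15 value, 71.4 CPM, and the second lowest parthenogenetic SLC9C2 value, 31.9 CPM. ICSI replicate 3 had the highest ICSI value of ARL15 and the lowest of SLC9C2, 51.3 and 39.0 CPM. Some of these ranks depended on the scaling factors. Without them the highest androgenetic SLC9C2 value was in replicate 1 (17.7 against 16.2 CPM in replicate 6). The highest ARL15 value was then in ICSI replicate 3 (70.4 against 55.3 CPM in parthenogenetic replicate 6). The lowest ICSI value of SLC9C2 was then in replicate 2 (52.8 against 53.6 CPM in replicate 3). Across the 15 libraries the correlation of the genes' log2(CPM + 1) values was 0.530, and after removal of the group means it was -0.542. These coefficients describe 15 libraries whose groups differ by the choice of the genes, and are given with no p.

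The contrast of parthenogenetic with ICSI morulae was not used to choose the genes and was tested. For ARL15 the log2 fold change was 0.26 ± 0.59 (SE), a 1.201-fold difference with a 95% interval of 0.508-fold to 2.84-fold, and it did not pass in edgeR's quasi-likelihood test (unadjusted p = 0.660, adjusted p = 0.99997). An exact two-sided permutation test of the mean log2(CPM + 1) over 252 arrangements gave a difference of 0.23 and p = 0.500 (adjusted 0.897 over both genes). For SLC9C2 the fitted value was 0.16 ± 0.53 (1.12-fold, interval 0.516-fold to 2.42-fold, unadjusted p = 0.768 and adjusted p = 0.99997 in edgeR). The exact permutation test gave -0.06 with p = 0.897 (adjusted 0.897), so the fitted and the mean log2 difference of SLC9C2 had opposite signs. Both intervals include a fold of 1, and they do not show that the groups are alike. The signs were not stable: without parthenogenetic replicate 6 the value of ARL15 was -0.02, and without parthenogenetic replicate 1 or 5 that of SLC9C2 was -0.15 or -0.01. In this contrast edgeR called 0.0733% of the 16375 rows, all of them lower, and neither gene was among them or among the calls of DESeq2 or limma voom. The parthenogenetic and ICSI values of both genes overlapped, while 0.501% of rows had all parthenogenetic libraries below all ICSI libraries and 0.379% all above.

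For the contrasts that chose the genes no call is given for either of them. As background, the rows that edgeR called lower (threshold 0.05 on the adjusted p) made up 1.06% of the 16375 rows for androgenetic minus ICSI and 0.837% for androgenetic minus parthenogenetic. Rows called higher were 1.76% and 0.916%, and rows called in either direction 2.82% and 1.75%. The higher rows were 62.5% of the calls against ICSI with TMM factors, 72.8% with DESeq2 size factors and 21.8% with library totals alone, and the median log2 fold change of all rows with these scalings was -0.01, 0.13 and -0.54. Set against that median, ARL15 was at -2.70, -2.69 and -2.71 and SLC9C2 at -2.12, -2.13 and -2.12. For androgenetic minus parthenogenetic the distances were -2.97, -2.97 and -2.89 for ARL15 and -2.28, -2.28 and -2.39 for SLC9C2. A change of scaling moves nearly all rows by about the same amount, so near-equal distances follow from the arithmetic. They also rest on the contrasts that chose the genes, and are description only.

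**Figure D2:**
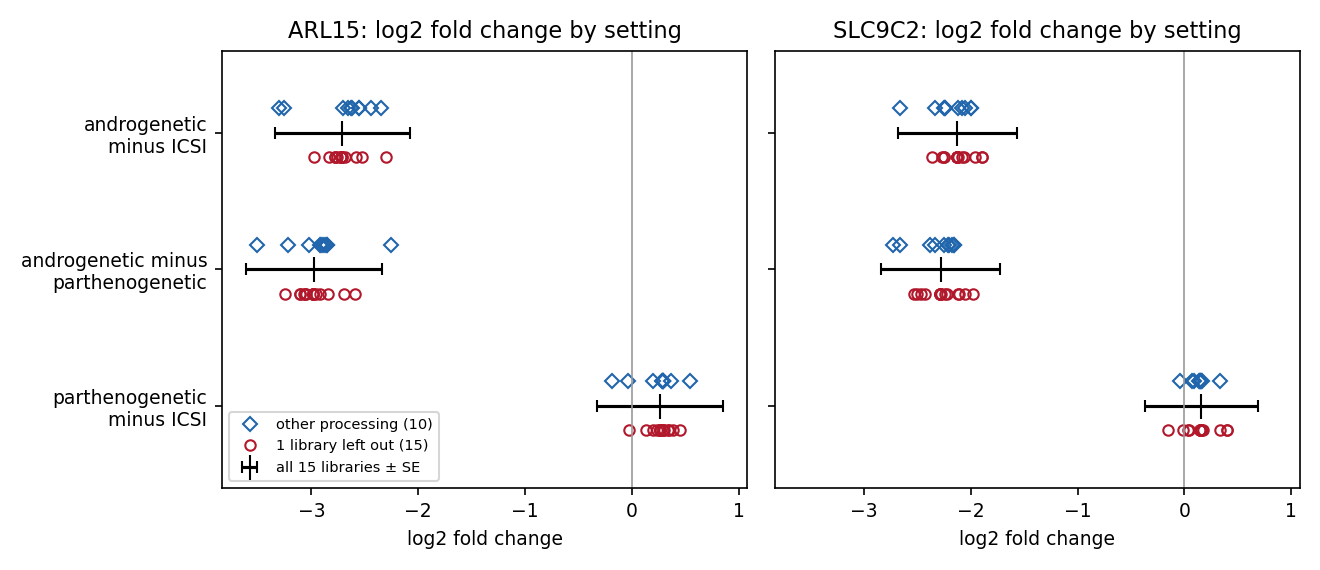
Log2 fold change of ARL15 (left) and SLC9C2 (right) in the 3 contrasts, with the value of all 15 libraries and its SE (black), 10 other ways of processing (diamonds) and fits with 1 library left out (circles). All values of both androgenetic contrasts are negative, from -3.51 to -1.89, while those of parthenogenetic minus ICSI lie on both sides of 0.

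All 100 values of the androgenetic contrasts, 25 other fits for each of the genes and contrasts, were negative. These fits reuse the counts by which the genes were chosen as lower, so the shared sign is description only. For ARL15 against ICSI the values ran from -3.30 with limma voom to -2.30 without androgenetic replicate 6. For ARL15 against parthenogenetic morulae they ran from -3.51 with limma voom to -2.26 when each group lost its library with the fewest detected genes. The range for SLC9C2 was -2.66 with library totals alone to -1.89 without androgenetic replicate 5 against ICSI, and -2.73 with library totals alone to -1.98 without parthenogenetic replicate 1 against parthenogenetic morulae. With genes detected as a covariate ARL15 was at -2.35 and -2.89 and SLC9C2 at -2.24 and -2.38 for androgenetic minus ICSI and minus parthenogenetic.

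Of 192 symbols in 9 lists of genes related to the pair, 9 had a row of their own, ARL15 and SLC9C2 included, and most of the table is named by Ensembl identifiers that no table used here pairs with symbols. Apart from ARL15 and SLC9C2, 6 were tested. edgeR's quasi-likelihood test called 0 of these 6 in each of the 3 contrasts, with 2 at an unadjusted p under 0.05 for androgenetic minus ICSI, 2 for androgenetic minus parthenogenetic and 0 for parthenogenetic minus ICSI. Of all rows, 19.7%, 18.7% and 1.86% had such a p in these contrasts. Of all 16375 rows, DESeq2 called 1987, 1678 and 39 and limma voom 876, 703 and 11. Of the 6 genes, DESeq2 called 2, 1 and 0 and limma voom 1, 1 and 0. Their median log2 fold change for androgenetic minus ICSI was 1.61, with 4 of 6 positive, beside -0.01 for all rows. It was 0.80 for androgenetic minus parthenogenetic, with 4 of 6 positive, beside -0.0023 for all rows, and 0.12 for parthenogenetic minus ICSI, with 3 of 6 positive, beside 0.02.

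Magnesium transport was represented by TRPM6 alone, of 22 symbols. TRPM6 is a magnesium channel that is also a kinase, and in human cells ARL15 is known to raise its activity. It had 39.9, 27.4, 27.1, 16.3 and 44.9 CPM in androgenetic replicates 1, 2, 4, 5 and 6, against 2.52, 15.9, 7.08, 0.375 and 1.25 CPM in parthenogenetic replicates 1, 2, 3, 5 and 6. In ICSI replicates 1 to 5 it had 5.68, 7.42, 3.26, 4.56 and 8.61 CPM. Every androgenetic library was above every library of the other groups, by a small margin between androgenetic replicate 5 and parthenogenetic replicate 2, which without scaling factors stood at 12.7 and 16.1 CPM and so overlapped. Of all rows, 3.05% had every androgenetic library above every ICSI library and 1.78% above every parthenogenetic library. The log2 fold change of TRPM6 was 2.40 ± 0.76 (SE) for androgenetic minus ICSI and 2.52 ± 0.76 for androgenetic minus parthenogenetic, and neither passed in edgeR (adjusted p = 0.0830 and 0.0860). In edgeR a fit of the androgenetic and ICSI libraries alone called it (adjusted p = 0.0257), while a fit of the androgenetic and parthenogenetic libraries alone did not (adjusted p = 0.190). Genes detected as a covariate gave adjusted p = 0.196 against ICSI and 0.145 against parthenogenetic morulae, and the replicate block 0.215 and 0.126. DESeq2 and limma voom called it in both contrasts (adjusted p = 0.00704 and 0.0348 against ICSI, 0.00459 and 0.0202 against parthenogenetic morulae). Without parthenogenetic replicate 2, TRPM6 was at 3.46 for androgenetic minus parthenogenetic and passed in edgeR (adjusted p = 0.0391).

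Of 28 symbols for ARF and ARL GTPases, ARL9 was tested beside ARL15. ARL9, an ARF-like protein of little known function, had 301 and 368 counts in androgenetic replicates 1 and 6 and 0 to 51 in the other androgenetic libraries, against at most 26 in parthenogenetic libraries and at most 16 in ICSI libraries. Its high counts in androgenetic replicates 1 and 6 fell in the libraries of that group where ARL15 was lowest. The same libraries had the highest androgenetic values of SLC9C2 (18.9 and 25.04 CPM) and TRPM6 (39.9 and 44.9 CPM). In androgenetic replicates 2, 4 and 5 ARL9 had 0, 51 and 2 counts, with ARL15 at 7.08, 6.96 and 8.79 CPM. A relation of ARL9 to ARL15 was not tested. Its log2 fold change of 5.57 ± 2.02 (SE) for androgenetic minus ICSI did not pass in edgeR (adjusted p = 0.128), while DESeq2 called it (adjusted p = 0.0152). ARL9 had 0 counts in 3 of the 5 ICSI libraries, so the size of this value is poorly set, and it was 7.57 without ICSI replicate 1 and 4.77 without androgenetic replicate 6. AGAP3, a GTPase-activating protein for ARF proteins and the only 1 of 37 regulators with a row, averaged 0.240 ± 0.343 CPM over androgenetic libraries, 0.669 ± 0.546 CPM over parthenogenetic libraries and 0.938 ± 0.294 CPM over ICSI libraries (SD, n = 5 each). Its log2 fold change against ICSI was -1.94 ± 1.26 (edgeR adjusted p = 0.423), and -3.11 without androgenetic replicate 6. ARL9 and NHEDC1 fall outside the naming rule and were added after their values had been seen.

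Of 13 SLC9 symbols, NHEDC1 was the only other gene with a row. NHEDC1 is an older symbol of SLC9B1, a member of the sodium/proton antiporter branch known in mouse from sperm. It had 2.72 to 5.76 CPM in androgenetic libraries, 0.649 to 5.74 CPM in parthenogenetic libraries and 0.479 to 4.07 CPM in ICSI libraries, so the groups overlapped. Its log2 fold change for androgenetic minus ICSI was 1.32 ± 0.88 (SE, edgeR adjusted p = 0.440), and 2.09 without ICSI replicate 5. ADCY10, the soluble adenylyl cyclase that works with SLC9C1 in mouse sperm, had 1.90 ± 1.32 (adjusted p = 0.454), and reached 12.03 CPM in androgenetic libraries, 7.48 CPM in parthenogenetic libraries and 3.62 CPM in ICSI libraries. ATP6V0C, a subunit of the V-ATPase proton pump, was at -0.69 ± 0.67 (adjusted p = 0.619), at -1.40 without androgenetic replicate 1 and at 0.07 with genes detected as a covariate. FXYD3, a regulator of the sodium/potassium ATPase, had 0 counts in all 5 androgenetic libraries, 19 in total in parthenogenetic and 9 in ICSI libraries, and was below the expression filter. Bicarbonate transporters, carbonic anhydrases and ARL-binding proteins were not matched to a row.

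**Figure D3:**
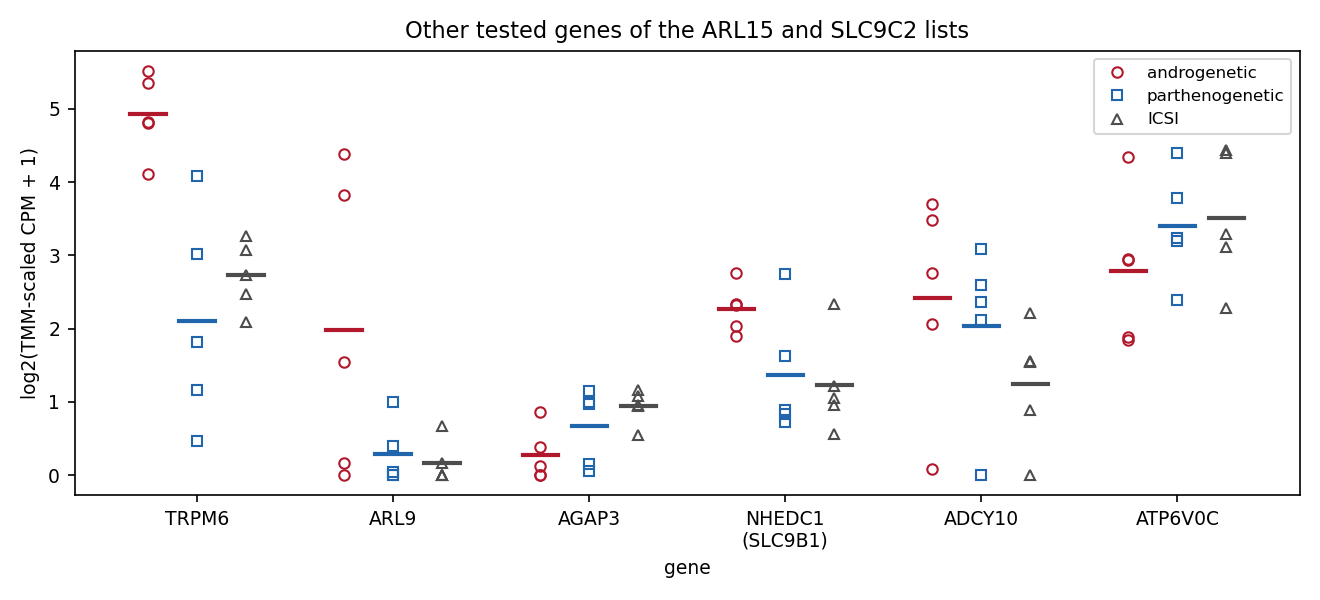
Log2(CPM + 1) of the 6 other tested genes from the lists on ARL15 and SLC9C2, by library (symbols) and group mean (bars). TRPM6 is the gene whose androgenetic values, 16.3 to 44.9 CPM, all lie above those of both other groups.

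Among 290 named rows with a mean of at least 5 CPM, those most like ARL15 over the 15 libraries, by Pearson correlation of log2(CPM + 1), were EPRS (0.887), CLNK (0.857), AARS (0.827) and ZNF567 (0.813). EPRS and AARS encode the glutamyl-prolyl and alanyl tRNA synthetases, CLNK a signalling adaptor of blood cells and ZNF567 a zinc finger protein. With the group means removed the coefficients were 0.703, 0.396, 0.699 and 0.206. EPRS averaged 37.0 ± 20.7 CPM over androgenetic libraries, 100.5 ± 15.1 CPM over parthenogenetic libraries and 96.2 ± 12.97 CPM over ICSI libraries (SD, n = 5 each). Its lowest value, 5.69 CPM, was in androgenetic replicate 6, as for ARL15, the library with the fewest genes detected. The other androgenetic libraries did not share an order. Replicate 1 had 57.7 CPM of EPRS and 3.20 CPM of ARL15, and replicate 5 had 31.1 and 8.79 CPM. The rank (Spearman) correlation of EPRS with ARL15 over the 15 libraries was 0.714. CLNK and ZNF567 had 1.99 and 7.30 CPM in androgenetic replicate 4, far above the other androgenetic libraries, while ARL15 in that library, at 6.96 CPM, was within the range of its group.

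The named rows most like SLC9C2 were SEPT7 (0.877), KIF1BP (0.863), TARS (0.837) and IARS (0.835). They encode the septin SEPTIN7, the kinesin-binding protein KIFBP, and the threonyl and isoleucyl tRNA synthetases. With the group means removed the coefficients were 0.712, 0.702, 0.503 and 0.633. SEPT7 averaged 245 ± 176 CPM over androgenetic libraries, 689 ± 312 CPM over parthenogenetic libraries and 624 ± 244 CPM over ICSI libraries (SD, n = 5 each). Its highest androgenetic value, 557.6 CPM, was in replicate 6, where SLC9C2 was also highest among androgenetic libraries with the scaling factors, though not without them. The likeness includes the group difference that chose ARL15 and SLC9C2, and 41 of the 16374 other rows were at least as close to ARL15 as EPRS and 45 as close to SLC9C2 as SEPT7.

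**Figure D4:**
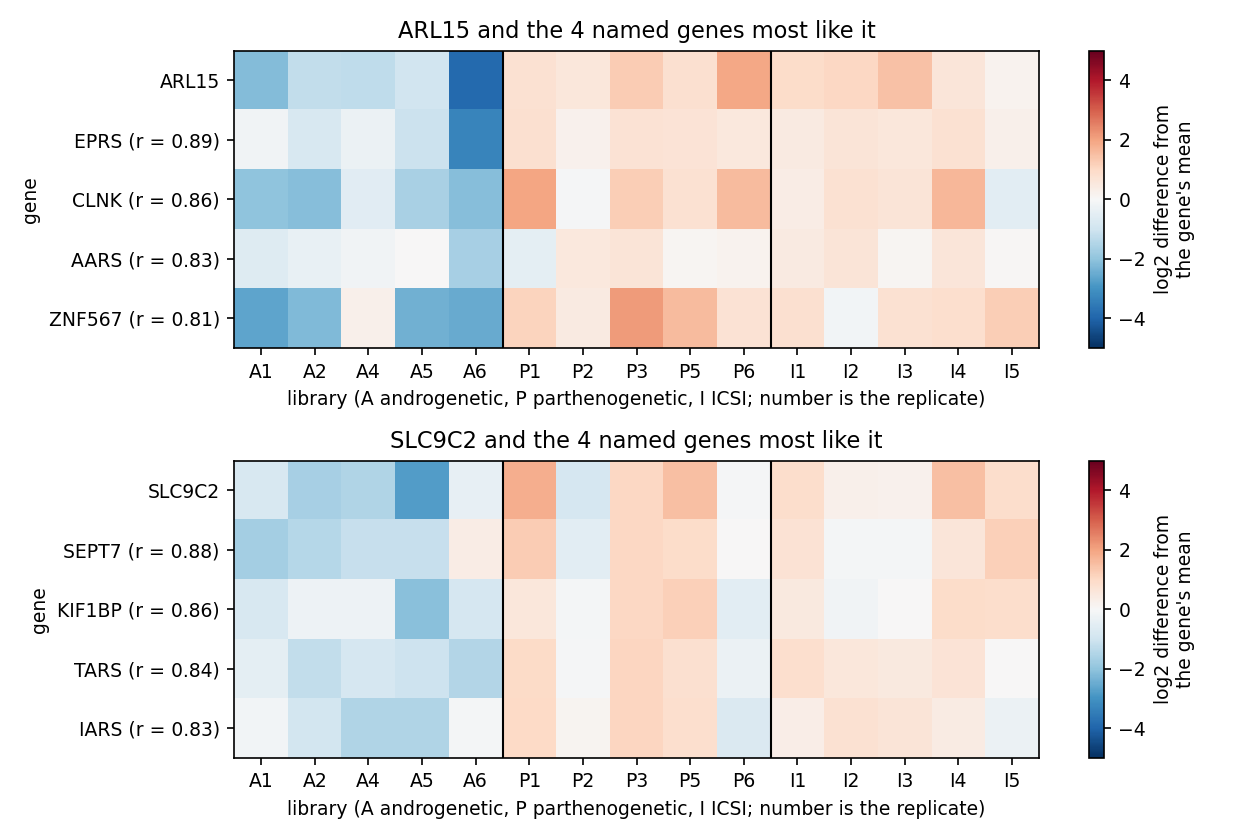
Log2 difference of each library from the gene's mean over 15 libraries, for ARL15 and SLC9C2 and the 4 named genes most correlated with each (r in brackets). The androgenetic columns are mostly blue (below the mean), and replicate 6 is the darkest column for ARL15 and EPRS but not for SLC9C2 and SEPT7.

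No row held nearly the same counts as ARL15 or SLC9C2, taking a difference of at most 2% or 3 counts in every library as near. The row closest to ARL15 was the unnamed ENSBTAG00000019193 (r = 0.981, and 0.931 with the group means removed). Its counts were 42.6% to 69.9% of the ARL15 counts in androgenetic libraries, 30.6% to 45.8% in parthenogenetic libraries and 22.9% to 40.0% in ICSI libraries. The closest to SLC9C2 was ENSBTAG00000006413 (0.955, and 0.913). Whether either is a separate gene, or shares reads with the named one, was not checked. Antisense transcripts cannot be told apart in these counts, and the strand setting of the counting is not given.

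The nearest named protein-coding genes in the RefSeq annotation of ARS-UCD2.0, leaving out genes known only by a LOC number, are HSPB3 and NDUFS4 beside ARL15 and PRDX6 and ANKRD45 beside SLC9C2. None of these had a row under its symbol. The nearest named genes with a tested row were FOXD1 and EMB for ARL15, with 171 and 17 annotated genes between, and KAZN and TOR1AIP1 for SLC9C2, with 24 and 75 between. For these edgeR's quasi-likelihood test made 0 calls in 12 tests over the 3 contrasts, at a lowest adjusted p of 0.359. Of all rows edgeR called 2.82% for androgenetic minus ICSI, 1.75% for androgenetic minus parthenogenetic and 0.0733% for parthenogenetic minus ICSI. The nearest named protein-coding genes themselves were not tested under their symbols. The build the authors used is not given in the sources used here, so no coordinates are printed.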

How the data were processed

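The labels' protocols name polyA RNA, the SMART-Seq HT kit and a Nextera XT preparation called stranded. Trim Galore, cutadapt, STAR and featureCounts were used, per the submitters' processing notes, which give no versions. Not given in the sources used here are build, annotation, strand setting and filters. The authors deposited raw, unnormalized counts by gene, with 31999 rows: 27607 with Ensembl identifiers (92.9% of counts), 3614 with LOC numbers and 778 with symbols. The RefSeq table of ARS-UCD2.0 served for names and neighbours only.

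TMM factors, an expression filter by group (16375 rows, 99.9% of counts) and quasi-likelihood tests came from edgeR 4.0.16 in R 4.3.3, with all 15 libraries in a model of group means. P-values were adjusted by Benjamini-Hochberg over all rows tested, with 0.05 as threshold. The SE is the log2 fold change divided by the square root of F. The common biological coefficient of variation was 1.02. The procedure was tested on simulated data. DESeq2 1.42.0 and limma 3.58.1 were alternatives, as were other scalings, no filter, a replicate block, genes detected as a covariate, fits of 2 groups and leaving libraries out. Exact two-sided permutation tests used log2(CPM + 1) and 252 arrangements, with 0.00794 as the smallest possible p. The labels do not say that replicates are separate embryos or animals, so the p-values reflect only the spread among libraries, which may be technical. Clopper-Pearson intervals cover counting error only, while intervals of fold changes come from the edgeR SE and include the spread among libraries.

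ARL15, SLC9C2 and the gene lists were chosen with earlier results of these data known. The naming rule took both genes, every called list member or else the most abundant member of each list, the 4 named rows most correlated with each gene, and the nearest named tested neighbours. A gene of these lists is not reported here.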

Additional observations from a re-analysis of the deposited data

Results flagged for a closer look

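In groups of 5, a library was singled out when its gap to the nearest other library exceeded 0.71 of the group's range (Dixon's 95% value), in CPM. Of 48 groups checked, 7 held such a library, each the highest of its group. Chance gives about 1 in 20 groups for normally distributed values, which was not checked for these CPM. The groups also share the same libraries, so no excess over chance is read from the 7. None of the 6 groups of ARL15 and SLC9C2 held such a library. The very low ARL15 value of androgenetic replicate 6 is thus not singled out on the CPM scale. Among the genes most like them, SEPT7 had 557.6 CPM in androgenetic replicate 6, against 132 to 191 in the others of the group. CLNK had 1.99 CPM in androgenetic replicate 4, against 0 to 0.416, and ZNF567 had 7.30 CPM in the same library, against 0.132 to 0.493. Of the related genes, NHEDC1 had 5.74 CPM in parthenogenetic replicate 6, against 0.649 to 2.08, and 4.07 CPM in ICSI replicate 5, against 0.479 to 1.32. These are the libraries with fewest genes detected in their groups. ATP6V0C had 19.2 CPM in androgenetic replicate 1, against 2.596 to 6.71, and ARL9 had 0.594 CPM in ICSI replicate 1, against 0 to 0.120.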

How the results depend on the processing

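Both androgenetic contrasts of ARL15 and SLC9C2 stayed negative in all 10 other ways of processing and all 15 fits with 1 library left out. The genes were chosen as lower in androgenetic libraries, so this is description and not a test. With 1 library left out, ARL15 lay between -2.98 and -2.30 against ICSI and between -3.25 and -2.60 against parthenogenetic morulae, and SLC9C2 between -2.36 and -1.89 and between -2.53 and -1.98. For parthenogenetic minus ICSI no setting passed for either gene (lowest adjusted p of 78 tests 0.492, edgeR, DESeq2, limma and exact tests). The sign of ARL15 turned with library totals alone (-0.032, chosen after the data were seen) and without the library with the fewest genes detected in each group (-0.18), and that of SLC9C2 with limma voom (-0.043). With 1 library left out they ran from -0.024 to 0.45 and from -0.15 to 0.40, and the mean log2 difference in the exact test from 0.02 to 0.39 and from -0.34 to 0.32. The cause of these turns was not tested.

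Counts of called rows depended on the setting. For androgenetic minus ICSI (461 called) DESeq2 called 1987, limma voom 876, and edgeR 1630 without the library with the fewest genes detected in each group, and 0 with genes detected as a covariate (3037 at an unadjusted p under 0.05). For androgenetic minus parthenogenetic (287) the counts were 1678, 703, 1874 and 154, and 27 in a fit of these groups alone. For parthenogenetic minus ICSI (12) DESeq2 called 39, and edgeR 6 without the library with fewest genes in each group. With 1 library left out the counts ran from 0 to 1077, 14 to 903 and 3 to 14. Of the related genes, ATP6V0C against ICSI turned to 0.073 with genes detected as a covariate.

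Whether the replicate numbers shared by the groups mark pairs was not settled, and the main tests and the exact permutation tests took the libraries as unpaired. Deviations of same-numbered libraries correlated at -0.09 to 0.13, over 0.1 in 4 of 12 pairs. Those of parthenogenetic with ICSI libraries were all positive, from 0.061 to 0.109. Of 8 libraries, 3, 6 and 1 correlated best with their own number in androgenetic with ICSI, parthenogenetic with ICSI and androgenetic with parthenogenetic libraries. Each library was compared with the 4 libraries of the other group that bear a shared number, so some matches arise without pairs. With the replicate block the calls were 0 (2523 at an unadjusted p under 0.05), 3 and 88 in those contrasts, and ARL15 and SLC9C2 were at 0.37 and 0.09 for parthenogenetic minus ICSI. Whether the spread of 5 libraries a group or the depth limits these values more was not tested. In androgenetic replicate 6 the ARL15 value rested on 5 counts.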
